A study of Mus musculus with 6 samples.

Results

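DNA repair genes were taken as the protein-coding genes of the GENCODE mouse annotation (build GRCm38, the same as mm10) whose symbol is Fanc with a single letter from a to m, Rad with a number and at most a single letter from a to d, Xrcc1 to Xrcc6, Brca1 or Brca2, Ercc1 to Ercc8, one of several MutS and MutL homologues, Atm or Atr. Rad21, a cohesin subunit, was left out. The rule found 47 of 21853 protein-coding genes, on 19 chromosomes, and used no measured value.

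Cells keep their genome intact through several pathways, and the grouping used here placed each gene in a single one. Mismatch repair corrects errors of replication, excision repair removes damaged bases and bulky lesions, the Fanconi anaemia pathway unhooks crosslinks between the strands, and breaks of both strands are either joined directly or copied from the sister chromatid by homologous recombination. Mouse embryonic stem cells divide fast, spend much of the cycle in S phase and use homologous recombination more than most differentiated cells do. Acetylation of lysine 27 of histone H3 (H3K27ac), deposited by CBP and p300, marks active promoters and enhancers.

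The study measured H3K27ac by chromatin immunoprecipitation and sequencing in the E14 line of mouse embryonic stem cells (ESCs), with human HEK293 chromatin added as a spike-in. The labels describe 3 groups with 2 replicates each. Control cells received the solvent DMSO, a group received 100 nM NVP-2, an inhibitor of the elongation kinase CDK9, for 120 min, and a group received 800 nM actinomycin D, which binds DNA and blocks RNA polymerases, also for 120 min. All groups share an E14Tg2A line that carries Rosa26-Cre and Oct4-IRES-Puro, grown with leukaemia inhibitory factor and inhibitors of MEK and GSK3. The values come from the deposited list of 22973 control peaks, which pools both control replicates and gives a position for each peak without height, score or count. No peak height, replicate error or response to treatment of any repair gene was therefore measured here, the treated libraries were not analysed here, and the depth behind a peak cannot be read from the list. Of 13 marker genes of pluripotent cells, 10 had a peak at the promoter, Pou5f1, Nanog and Sox2 among them. None of 4 mesoderm and none of 3 blood cell markers had one, against 1 of 5 fibroblast, 2 of 4 endoderm and 2 of 4 neural markers.

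A promoter was called marked when at least 1 bp of a peak lay within 1 kb, on either side, of the transcription start site (TSS) of the isoform covering the longest stretch of genome. Nearly all DNA repair genes were marked in control ESCs. A peak lay within 1 kb of the TSS in 46 of 47 members (97.9%, 95% Wilson interval 88.9 to 99.6%), against 48.8% of all 21853 protein-coding genes. The TSS itself was inside a peak in 43 of 47 members (91.5%, 80.1 to 96.6%), against 44.2% of all protein-coding genes. These intervals cover counting error only, and the members share 1 pooled list. Each marked member had its own peak, 46 in all, and no window held more than 1.

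The member without a peak was Xrcc6, which encodes Ku70, a subunit of the ring that captures broken DNA ends for end joining. Its longest isoform starts at chr15:81987835 on the plus strand, 17558 bp from the nearest peak, which lies at chr15:81967837-81970277. A start without a listed peak may have had no signal or a signal below the authors' height limits. It may also have had a peak that the authors removed for lying away from open chromatin. The list cannot tell these apart. The gene did hold a peak elsewhere. One of 2075 bp at chr15:82015314-82017388 marked 4 of its 6 isoforms, among them the one starting at base 82016369, which is 28534 bp downstream of the longest isoform's start and is the start given by RefSeq. Counted over any isoform, all 47 members were marked, against 51.0% of protein-coding genes.

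Promoters compared below for a spelling of the E2F motif are shown here, with that of Xrcc6 at its RefSeq start first. E2F factors switch on genes of DNA replication and repair at the entry into S phase. Each run holds the 250 bases before the RefSeq TSS and 30 from it on, read 5′ to 3′ on the strand of the gene, from RefSeq on build GRCm38.p6. Capitals mark the letters TTTCCCGC, TTTCGCGC, TTTGCCGC or TTTGGCGC, or their reverse complement.
Xrcc6, chr15:82016119-82016398, plus strand: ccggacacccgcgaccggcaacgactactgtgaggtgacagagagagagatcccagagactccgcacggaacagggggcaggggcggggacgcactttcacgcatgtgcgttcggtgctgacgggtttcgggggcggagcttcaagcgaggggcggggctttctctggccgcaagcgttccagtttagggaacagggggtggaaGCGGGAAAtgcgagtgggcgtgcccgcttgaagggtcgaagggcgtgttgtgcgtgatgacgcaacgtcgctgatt
Brca2, chr5:150522371-150522650, plus strand: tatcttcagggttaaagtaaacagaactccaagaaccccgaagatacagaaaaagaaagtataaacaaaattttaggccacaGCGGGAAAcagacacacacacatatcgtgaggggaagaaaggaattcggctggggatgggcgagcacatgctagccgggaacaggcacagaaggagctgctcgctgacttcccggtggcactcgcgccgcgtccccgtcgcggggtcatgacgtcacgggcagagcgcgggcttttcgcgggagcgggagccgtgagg
Fancg, chr4:43010272-43010551, minus strand: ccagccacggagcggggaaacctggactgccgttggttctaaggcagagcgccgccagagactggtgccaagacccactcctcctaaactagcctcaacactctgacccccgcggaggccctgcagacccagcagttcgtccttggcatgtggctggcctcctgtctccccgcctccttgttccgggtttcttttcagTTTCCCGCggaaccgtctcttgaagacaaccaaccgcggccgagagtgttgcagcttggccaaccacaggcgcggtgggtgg
Msh5, chr17:35046593-35046872, minus strand: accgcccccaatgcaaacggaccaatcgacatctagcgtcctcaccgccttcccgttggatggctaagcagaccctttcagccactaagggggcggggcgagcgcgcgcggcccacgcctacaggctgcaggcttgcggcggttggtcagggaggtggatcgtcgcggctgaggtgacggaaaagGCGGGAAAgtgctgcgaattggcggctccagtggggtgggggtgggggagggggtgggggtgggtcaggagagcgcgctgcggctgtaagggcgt
Msh6, chr17:87974800-87975079, plus strand: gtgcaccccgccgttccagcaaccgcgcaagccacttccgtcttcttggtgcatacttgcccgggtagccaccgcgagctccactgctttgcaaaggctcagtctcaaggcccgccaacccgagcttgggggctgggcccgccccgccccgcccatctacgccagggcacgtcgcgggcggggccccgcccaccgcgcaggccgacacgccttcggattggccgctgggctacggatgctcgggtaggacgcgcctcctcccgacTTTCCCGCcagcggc
Rad51c, chr11:87404477-87404756, minus strand: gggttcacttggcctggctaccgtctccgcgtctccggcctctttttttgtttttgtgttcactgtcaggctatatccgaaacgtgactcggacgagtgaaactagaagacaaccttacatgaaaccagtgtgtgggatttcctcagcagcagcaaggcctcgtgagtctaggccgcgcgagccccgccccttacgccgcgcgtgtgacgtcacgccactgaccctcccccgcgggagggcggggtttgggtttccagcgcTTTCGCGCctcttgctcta
The E2F spelling began 46 bp upstream of the RefSeq TSS in Xrcc6, 168 bp upstream in Brca2, 52 bp upstream in Fancg and 65 bp upstream in Msh5. In Msh6 and Rad51c it lay just inside the transcribed part, 15 and 11 bp downstream of the TSS.

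The promoters of Atm and Brca1, each shared with a divergent neighbour inside 1 peak, are shown in the same way, with the letters CCAAT or their reverse complement in capitals. CCAAT is the core of the site read by the NF-Y complex.
Atm, chr9:53536642-53536921, minus strand: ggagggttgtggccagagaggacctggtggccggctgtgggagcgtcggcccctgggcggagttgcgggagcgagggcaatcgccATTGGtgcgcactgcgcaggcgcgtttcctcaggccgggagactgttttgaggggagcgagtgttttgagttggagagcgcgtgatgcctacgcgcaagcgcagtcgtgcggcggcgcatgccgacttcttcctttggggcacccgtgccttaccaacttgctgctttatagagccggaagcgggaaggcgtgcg
Brca1, chr11:101551926-101552205, minus strand: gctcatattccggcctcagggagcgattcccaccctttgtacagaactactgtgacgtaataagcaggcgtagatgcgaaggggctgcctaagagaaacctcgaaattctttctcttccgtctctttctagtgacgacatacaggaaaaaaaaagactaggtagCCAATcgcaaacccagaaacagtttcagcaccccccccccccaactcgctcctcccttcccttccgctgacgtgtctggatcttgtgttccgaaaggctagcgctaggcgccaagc
The CCAAT spelling of Brca1 began 86 bp upstream of its RefSeq TSS and that of Atm 165 bp upstream.

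The median peak of the members was close in width to that of all marked promoters. The median width over the 46 marked members was 2351 bp (quartiles 1780 and 5975 bp), against 2174 bp (1558 and 4832.5 bp) over all 10674 marked protein-coding genes. Widths ran from 551 bp at Rad51d to 14972 bp at Msh6. Peaks of at least 5 kb were found at 14 of 46 members (30.4%), against 24.0% of all marked genes and 12.8% of the 78 marked other genes of the pathways. Peaks of at least 10 kb were found at 6 of 46 (13.0%), against 10.8% and 3.85%. The authors joined peaks lying within 2 kb of each other, and the smallest gap in the list is 2001 bp, so a wide peak may span shorter stretches without signal. Around the TSS the median extent was 1021 bp upstream and 1141 bp downstream, against 841 and 1172 bp over all marked genes. The peak reached further downstream than upstream in 27 of 46 members (58.7%), against 67.6% of all marked genes.

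The Fanconi anaemia group held 9 members, all marked, and 8 of them had the TSS inside the peak. Fanca, Fancb, Fancc, Fance, Fancf, Fancg and Fancl belong to the core complex, a ubiquitin ligase assembled at stalled forks. At Fance, Fancf, Fancg, Fanca and the longest isoform of Fancc the peak was compact and lay on both sides of the start. It was 1634 bp wide at Fance, chr17:28312848-28314481 around a TSS at base 28313519, and 2034 bp at Fancf. It was 1902 bp at Fancg and 1906 bp at Fanca, where chr8:123317833-123319738 reached 1162 bp upstream and 743 bp downstream of base 123318576. Fancb, on the X chromosome, had a wider peak of 3251 bp, chrX:164979087-164982337, which also held the start of Mospd2, 217 bp away on the other strand.

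At Fancc and Fancl the place of the peak relative to the start differed between the longest isoform and RefSeq. Fancc forms a subcomplex with Fance and Fancf. Its longest isoform begins at chr13:63497278 on the minus strand, with a peak of 1859 bp at chr13:63495692-63497550. The RefSeq start lies 65533 bp further along the gene in a second peak of 3642 bp, chr13:63429317-63432958, so that the 2 starts were marked by separate peaks. Of 11 isoforms of Fancc, 8 were marked. Fancl encodes the catalytic subunit that attaches ubiquitin to Fancd2 and Fanci. The peak at Fancl, chr11:26386604-26387643, was 1040 bp wide and ran from 469 to 1508 bp downstream of the longest isoform's start at base 26386135, while the RefSeq start, 949 bp downstream, lay inside it.

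Fanci and Fancm carried broad peaks. Fanci is the partner of Fancd2 in the clamp that the core complex modifies. Its peak, chr7:79386526-79400530, was 14005 bp wide, ran from 5786 bp upstream to 8218 bp downstream of the TSS at base 79392312, and held the start of Rlbp1 5264 bp away. Fancm is the translocase that brings the core complex to branched DNA. Its peak, chr12:65065315-65076932, was 11618 bp wide and lay mostly upstream, with 10291 bp before and 1326 bp after base 65075606, and held the divergent start of Fkbp3 at 1599 bp. The 9 other genes fixed for this pathway, such as Fancd2, Palb2 and Slx4, were also all marked.

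Homologous recombination had 11 members, all marked, and 10 had the TSS inside the peak. Brca1, which promotes the resection of broken ends, had a peak of 6061 bp, chr11:101547873-101553933, reaching 2054 bp upstream and 4006 bp downstream of base 101551879. That peak also held the start of the autophagy receptor gene Nbr1, 270 bp away on the other strand. Brca2, a mediator of strand exchange, had the widest peak of the group, 8060 bp, with 764 bp upstream and 7295 bp downstream of the TSS. Both peaks reached further into the gene than upstream.

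Rad51b, Rad51c, Rad51d, Xrcc2 and Xrcc3, whose products form complexes with one another, ranged from the narrowest peak of the group to one of the widest. Rad51d had the narrowest peak of all members, 551 bp at chr11:82889979-82890529, which ran from 85 to 635 bp downstream of the TSS at base 82890614. Xrcc2 (1829 bp) and Rad51c (1772 bp, chr11:87403766-87405537) had peaks of ordinary width. The peak of Rad51c held the start of Tex14, a gene of the germ cell bridges, 542 bp from its own start at base 87404523. Rad51b, in chr12:79295363-79297924, shared 2562 bp with Zfyve26, whose start lay 978 bp from base 79297282. Xrcc3 stood apart, with 7821 bp at chr12:111812973-111820793, of which 6952 bp lay upstream of base 111813841, past the start of Zfyve21 at 372 bp.

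Rad50, the ATPase of the complex that senses breaks, had 1413 bp, and Rad54b, a DNA translocase, 1988 bp. Rad52, which anneals complementary strands, had 1152 bp at chr6:119902302-119903453, and its start at base 119902703 lay 401 bp from the upstream and 750 bp from the downstream edge and 50 bp from that of the long intergenic RNA 4930540M05Rik. Of 13 further genes of the pathway, 12 were marked. Rbbp8, which encodes the resection factor CtIP, was the exception at its longest isoform, 23546 bp from the nearest peak, and 2 of its 3 isoforms were marked.

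End joining had 3 members. Xrcc5 encodes Ku80, the partner of Ku70, and Xrcc4 holds DNA ligase IV at the break. Xrcc5 was marked by 8211 bp, almost all of it in the gene, with 1028 bp upstream and 7182 bp downstream of the TSS. Xrcc4 was marked by 2140 bp at chr13:90088604-90090743, around a start at base 90089608, and shared the peak with Tmem167, which starts 485 bp inside Xrcc4 on the other strand. The pair of Ku genes thus differed at the longest isoform, while at the RefSeq starts both had the TSS inside a peak. Of 7 other genes, 5 were marked. The 2 unmarked ones were Dclre1c, which encodes the nuclease Artemis, and Nhej1, an end-bridging factor, at 49413 and 11718 bp from the nearest peak.

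Xrcc1, the scaffold of single-strand break repair, was the single member of base excision and single-strand break repair. Its peak of 5681 bp, chr7:24546305-24551985, began 16 bp downstream of the longest isoform's start at base 24546289 and covered the RefSeq start, 410 bp downstream. The divergent gene Pinlyp starts 171 bp away on the other side and was not inside the peak. Of 20 other genes of this pathway, 17 were marked, and Neil3, Parp2 and Smug1 were not. Neil3, a glycosylase, lay 126497 bp from the nearest peak, and Parp2, which senses strand breaks, 22072 bp. Smug1, a uracil glycosylase, lay 1589 bp from one, and 2 of its 4 isoforms were marked.

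Nucleotide excision repair held 9 members, all marked and all with the TSS inside the peak. Ercc2 and Ercc3 encode the helicases of TFIIH, which unwind the lesion. At Ercc2 the peak was 779 bp, chr7:19382002-19382780, and began 8 bp upstream of base 19382010, so that the mark lay almost wholly in the gene. At Ercc3 it was 1663 bp. Ercc4 and Ercc5 encode nucleases that cut on either side of the lesion, and their peaks had 1814 and 1804 bp. Ercc1, the partner of Ercc4, had a wider one of 4494 bp, chr7:19341968-19346461 around base 19344778, which held the start of the long intergenic RNA D830036C21Rik at 2553 bp. Ercc1 and Ercc2 are neighbours, with starts 37232 bp apart and 2 further peaks between theirs.

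Ercc6 and Ercc8 start repair where RNA polymerase is stalled on a lesion. Ercc6 had a peak of 1425 bp and Ercc8 one of 1395 bp, chr13:108157992-108159386, which held the start of Ndufaf2 at 115 bp from base 108158738. These were among the shorter peaks of the set. Rad23b, a partner of the lesion sensor Xpc, had by contrast the widest of the pathway. It had 14110 bp, chr4:55348126-55362235, with 1917 bp upstream and 12192 bp downstream of base 55350043. Of 12 other genes, 11 were marked, and Xpa, a damage-binding scaffold, lay 56763 bp from the nearest peak.

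Mismatch repair had 5 members, all marked with the TSS inside, and a median width of 4456 bp. Msh6 recognises mispaired bases. Its peak was 14972 bp, the widest of all members, chr17:87968304-87983275, with 6758 bp upstream and 8213 bp downstream of base 87975062. Msh3, which binds larger loops, had a much narrower peak of 1913 bp, with 907 bp upstream and 1005 bp downstream of the TSS.

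Mlh3 encodes a subunit of an endonuclease that acts after the mismatch sensors. It had 4456 bp, most of it, 3143 bp, upstream. Both other genes of the pathway, Pms1 and Pms2, were marked.

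Msh4 and Msh5 encode a dimer that stabilises crossovers in meiosis, which ESCs do not undergo. Both were called marked, with peaks of 8599 and 7189 bp. In each the member's start lay near the downstream edge and the peak ran upstream to the start of another gene. The peak of Msh4, chr3:153905045-153913643, had 7505 bp upstream and 1093 bp downstream of base 153906138 and held the start of Rabggtb, a subunit of the enzyme that lipidates Rab proteins, 6871 bp away on the same strand. At its RefSeq start, 1247 bp downstream, the TSS was 154 bp outside the peak, the single case among the 37 members with a RefSeq promoter. The peak of Msh5, chr17:35045762-35052950, had 6224 bp upstream and 964 bp downstream of base 35046726 and held the divergent start of Clic1 at 3240 bp. Of 7 other meiotic genes, 2 were marked, Dmc1 and Rec8. Spo11, which makes the meiotic breaks, Mei4, Hormad1, Sycp1 and Sycp3 were unmarked, at 1644 to 965285 bp from the nearest peak. Which gene of a shared peak the mark belongs to cannot be told apart in a list of positions.

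Checkpoint genes numbered 6, all marked with the TSS inside. Atr, the kinase that answers to stalled forks, had the shortest peak of the group, 1269 bp. Atm, the kinase activated by double-strand breaks, had 3210 bp, chr9:53535260-53538469, around a start at base 53536740, and shared it with Npat, the activator of histone genes, 307 bp away. The state of Atm depended on the isoform. The isoform longest by spliced length starts 2774 bp further into the gene, outside the window of any peak, and 2 of 4 isoforms were marked.

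The other checkpoint members encode parts of the clamp that activates Atr or its loader. Rad9a had 2124 bp and Rad9b, its paralogue, 2699 bp at chr5:122353282-122355980, with the start of the retromer gene Vps29 137 bp from base 122354232. Rad1 had 5717 bp, chr15:10482095-10487811, with the start of Brix1 122 bp from base 10486069. Rad17, the clamp loader, had 3701 bp, chr13:100650590-100654290 around base 100651051, and was the single member whose peak held 2 other starts, Ak6 at 72 bp and Taf9, a TFIID subunit gene, at 556 bp. All 11 other checkpoint genes, such as Chek1 and Trp53bp1, were marked.

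Rad18, the ligase that modifies PCNA so that polymerases can pass a lesion, represented damage tolerance. Its peak, chr6:112695606-112696716, was 1111 bp wide, with 30 bp upstream and 1080 bp downstream of base 112696686. The divergent start of Gm26799, 91 bp away, was thus outside it. Of 10 other genes of this pathway, 9 were marked, and Rev3l, the catalytic subunit of polymerase zeta, lay 19753 bp from the nearest peak.

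**Figure D1:**
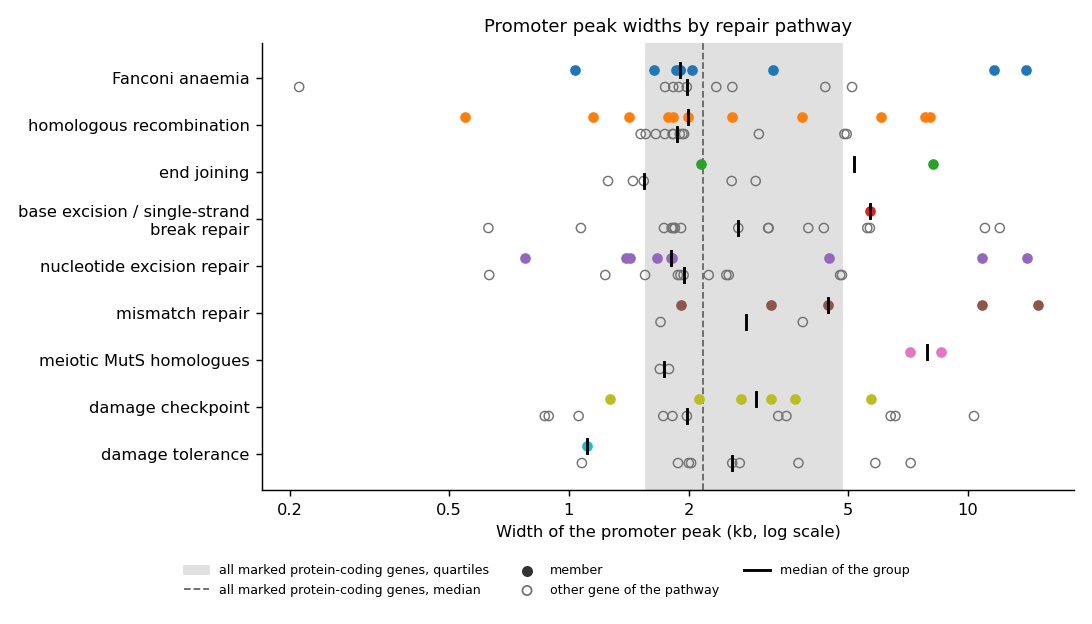
Each filled point is the promoter peak width of a marked member and each open point that of another gene of the same pathway, in kb on a log axis, and vertical ticks are medians. The grey band and dashed line give the quartiles and the median of 2174 bp over all marked protein-coding genes. Member medians lie above that line for end joining, base excision and single-strand break repair, mismatch repair, the meiotic MutS genes and the checkpoint. They lie below it for the other 4 groups. The medians of end joining and the meiotic MutS genes rest on 2 marked members each. Those of base excision and single-strand break repair and of damage tolerance are the width of 1 member.

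Over all pathways, 78 of 91 other genes were marked (85.7%, 77.1 to 91.5%), with a median width of 1943.5 bp. The members' share was above that of these genes. The meiotic group held 7 of the 91 other genes, 5 of the 13 unmarked ones among them, and 2 of the 47 members. Its part in the difference was not tested. No test of the difference was made, because the lists were chosen with results known.

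**Figure D2:**
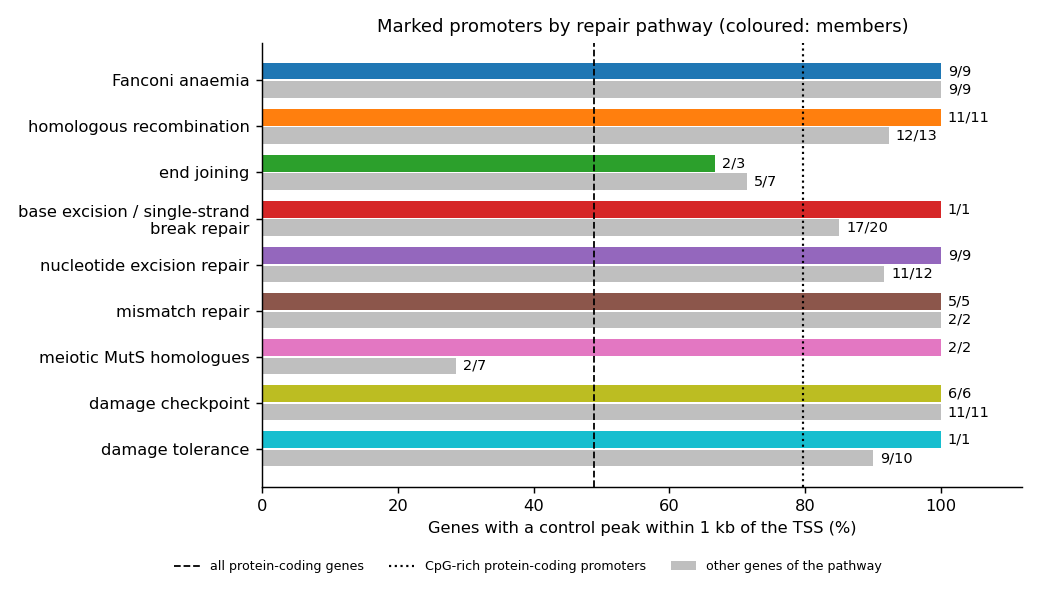
Bars give the percentage of genes with a control peak within 1 kb of the TSS for members (coloured) and other genes of each pathway (grey), with the counts beside them. The dashed line is the 48.8% of all protein-coding genes and the dotted line the 79.7% of CpG-rich promoters, and the meiotic genes that are not members have the shortest bar, 2 of 7.

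Repair genes often stood next to another gene. The peak of 20 of 46 marked members held the start of another gene (43.5%, 30.2 to 57.8%), against 27.7% of all marked protein-coding genes and 42.3% of the marked other genes of the pathways. For 12 members that start was divergent, on the other strand and upstream, within 1 kb, among them Fancb, Atm, Rad1, Rad17, Rad9b, Brca1, Rad51b, Rad51c, Rad52, Xrcc3 and Ercc8. For 4 more, Fanci, Fancm, Msh5 and Ercc1, it was divergent and further away. Among the remaining 4, at Xrcc4 the other gene started inside the member on the other strand, and at Msh4 it lay on the same strand. Counted without regard to peaks, a divergent start lay within 1 kb of 14 of 47 members (29.8%, 18.7 to 44.0%), against 8.48% of all protein-coding genes, 15.7% of those with a CpG-rich promoter and 28.6% of the other genes of the pathways.

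A wider peak can reach more starts, so width and sharing are not independent. Member peaks with another start had a median of 3476 bp, and the 26 without one had a median of 1880.5 bp. Over all marked protein-coding genes the medians were 3131 and 1968 bp. Leaving out every gene with another start within 2 kb, 28 of 29 members were marked (96.6%), against 43.4% of 18604 protein-coding genes, and the median width was 2011 bp in members and 2095 bp in all marked genes, the reverse of the order without this restriction.

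Base composition also moved with the mark. A promoter sequence, 250 bases before and 50 from the TSS on, was called CpG-rich when its CpG count was at least 0.6 times that expected from its C and G content. This held for 39 of 47 members (83.0%), against 78.0% of the other genes of the pathways and 46.6% of all protein-coding genes, and all 39 were marked, against 79.7% of the 10176 CpG-rich promoters. The median ratio was 0.922 in members, 0.785 in the other genes of the pathways and 0.554 in all genes, and the median GC content was 58.3%, 58.7% and 55.7%. The part of CpG content in the members' share of marked promoters was not tested.

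The 8 CpG-poor members were Fancb, Fancc, Fancl, Xrcc1, Xrcc5, Xrcc6, Msh4 and Ercc1. Of these 7 were marked, against 22.0% of all CpG-poor promoters. They include the unmarked Xrcc6, with a ratio of 0.0537, and both Fancl and Xrcc1, whose start lay outside the peak, with 0 and 0.146. Rad51d, the third marked member with its start outside the peak, was CpG-rich, with 0.641. At the RefSeq start the ratio of Xrcc6 was 1.04 and that of Fancc 0.854, against 0.287 at its longest isoform. The other 6 stayed below 0.6 at their RefSeq starts, between 0.182 at Fancl and 0.547 at Ercc1. Another isoform starting inside the same peak had a ratio of 0.901 at Xrcc1, 0.6448 at Fancl and 0.6275 at Ercc1. Fancb, Msh4 and Xrcc5 had no isoform at 0.6 or above.

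**Figure D3:**
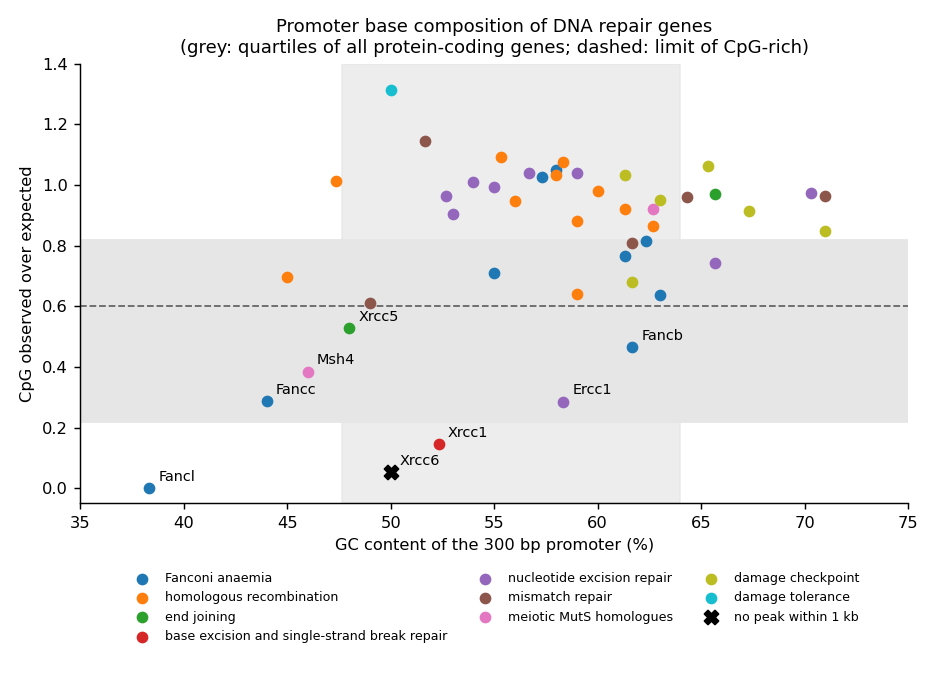
Points are the promoters of the 47 members by GC content of the 300 bp sequence (x axis, percent) and CpG observed over expected (y axis), coloured by pathway, with the unmarked Xrcc6 as a cross. The dashed line is the limit of 0.6, below which the 8 named members lie, and the grey bands are the quartiles of all protein-coding genes.

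The E2F spellings shown above were found, on either strand, in the 300 bp promoters of 6 of 47 members (12.8%, 5.98 to 25.2%), against 2.82% of all protein-coding genes and 4.83% of CpG-rich promoters. The 6 were Brca2, Fancg, Msh3, Msh5, Msh6 and Rad51c, and among the other genes of the pathways 10 of 91 held one (10.99%). Xrcc6 held one at its RefSeq start and not at that of its longest isoform. The reverse complement of an E2F spelling can share the letters GCGGG with the SP and KLF spelling GGGGCGGG, and this occurred in 0 members.

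The other 8 spellings had intervals that covered the share of CpG-rich promoters. GGGGCGGG was found in 13 members (27.7%), against 37.6% of CpG-rich and 21.9% of all promoters. CCAAT was found in 24 (51.1%, 37.2 to 64.7%), against 37.5% and 38.7%. The ETS spelling CCGGAAGT was found in 4, among them Rad1, Ercc3 and Ercc5, the NRF1 spelling CGCATGCG in 3, among them Fancm and Ercc6, and the CRE spelling TGACGTCA in 2 (Brca2 and Rad51c). AAGATGGCG, read by YY1, was found in 1 member, and TCTCGCGA, read by ZBTB33, in 0 members. TATAAA on the strand of the gene was found in Brca2, Fancl and Msh4 (6.38%, against 3.81% of CpG-rich and 8.66% of all promoters). A match is a run of letters and not a measured binding site.

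**Figure D4:**
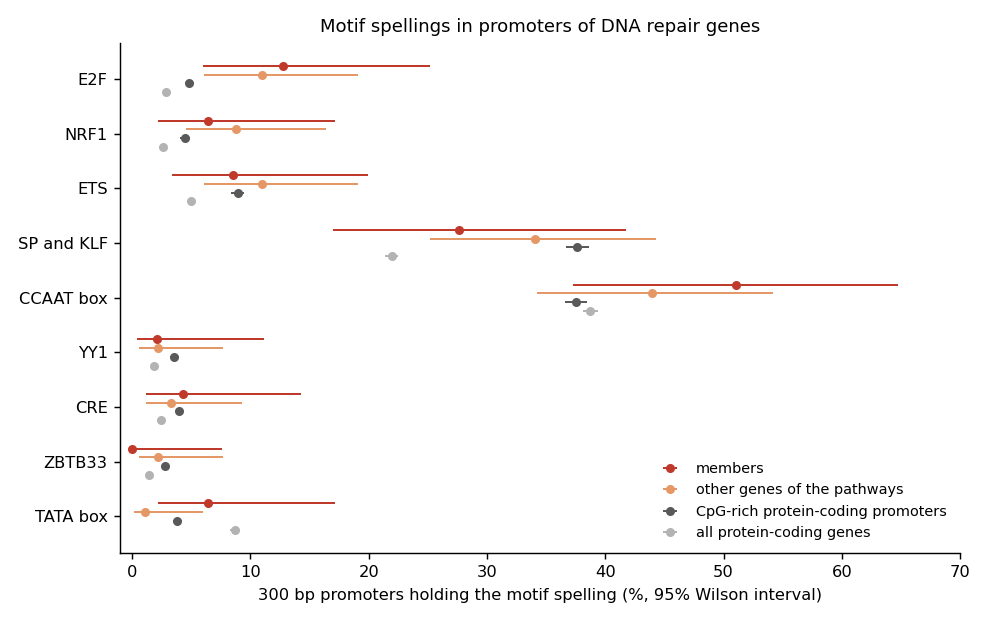
Points are the percentage of 300 bp promoters that hold each motif spelling, with 95% Wilson intervals as bars, for the 47 members, the 91 other genes of the pathways, CpG-rich promoters and all protein-coding genes. The E2F spelling is at 12.8% in members and 4.83% in CpG-rich promoters, and the intervals of the members for the other 8 spellings cover the CpG-rich value.

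Of 135 isoforms of the 47 genes, 114 were marked. All isoforms were marked in 33 members, and 14 had at least 1 unmarked isoform, among them Fanca, Fancc, Fance, Fancl, Fancm, Atm, Rad9b, Rad18, Brca1, Msh3, Ercc1 and Xrcc6. A RefSeq promoter was found for 37 members, and all 37 were marked at a RefSeq start, 36 with the start inside the peak. No RefSeq entry was used for 10, among them Rad9a, Rad50, Rad51d, Rad54b, Xrcc2 and Ercc3.

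Further peaks overlapped 13 members away from any of their starts, some of them only at the end of the gene. There were 20 such peaks, of which 15 touched the promoter of no protein-coding gene. Fancc held 4 of them, between 6659 and 18634 bp wide, the widest at the 3′ end of the gene and mostly beyond it. Rad51b, a gene with introns of great length, held 3 intronic peaks of 1384, 3484 and 3979 bp, the middle of the nearest 365328 bp from the TSS. Ercc4 held peaks of 2890 and 3880 bp. Atm held 1 intronic peak of 977 bp and Xrcc5 one of 1657 bp. Rad1 held one of 6351 bp at its 3′ end. Peaks in Ercc1, Fancg, Rad54b and Rad9a touched promoters of other genes, such as Vcp at the 3′ end of Fancg.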

How the data were processed

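H3K27ac ChIP-seq libraries of 2 control, 2 NVP-2 and 2 actinomycin D samples are described in the labels. The values used are positions in base pairs in the deposited list of 22973 control peaks on mm10. The labels of both control samples name this list, and it pools them, so no replicate error or test was possible. According to the methods and the submitters' processing notes, adapters were trimmed (cutadapt), reads aligned with BWA to mouse and human genomes together, duplicates removed with Picard 2.9.1 and poorly mapped reads with SAMtools 1.4. The authors called peaks with LanceOtron, joined those within 2 kb and removed low peaks and those away from open chromatin. The depth behind each peak cannot be read from the list, and read totals that the study states were not used here.

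Coding and lincRNA genes came from GENCODE M21 (27706 genes), an earlier release than that of the study, and sequence from GRCm38.p6, which matched the chromosomes of the list. The TSS of the isoform of longest genomic span stood for a gene, and of several peaks the one covering most of the window was used. A promoter was marked when at least 1 bp of a peak lay within 1 kb. Coordinates count from 1. Shares have 95% Wilson intervals, and no p-value was computed. CpG observed over expected, GC content and motif spellings were read from 250 bases before to 50 from the TSS on. Members were named with their state. Items withheld from the text, among them 4 members, are not reported here one by one and stay in the counts and medians. TSS and peak positions were given for unmarked members, the 5 widest and 5 narrowest peaks, peaks with the TSS of another gene and members with an unmarked isoform, and other genes of a pathway were named when unmarked. A few marked ones were added as examples. The members, pathway lists and alternatives were chosen with earlier results of these data known. The scripts were tested on simulated peaks and planted motifs. Python 3.11.15, numpy 2.4.6, pandas 2.3.3, scipy 1.17.1, pysam 0.24.0 and matplotlib 3.10.9 were used.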

Additional observations from a re-analysis of the deposited data

How the results depend on the processing

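Under 8 other settings of window, isoform, peak and gene choice, 8 of 358 states of single members changed, 6 from marked to unmarked and 2 from unmarked to marked. With the TSS base itself required inside a peak, Fancl, Rad51d and Xrcc1 were lost, which left 0% of the single base excision and single-strand break repair member, and all protein-coding genes fell to 44.2%. With peaks at least 1 kb wide, Ercc2 and Rad51d were lost and the share of all genes was 43.7%. Counting any isoform marked 100% of members, 100% of the end joining members and 51.0% of all genes. With the isoform longest by spliced length, Atm was lost and Xrcc6 gained, giving 100% for end joining and 83.3% for the checkpoint. For all genes the share was 49.9% with 2 kb on each side, 47.4% with an overlap of at least 500 bp and 43.4% for genes with no other TSS within 2 kb, each outside the narrow interval of the main value. The settings with RefSeq starts and with CpG-rich promoters were chosen after seeing the data. They gave 100% of 37 and 100% of 39 members, against 52.1% and 79.7% of all genes. Median widths stayed within 1.5 times their main value under every alternative run, and neighbour counts, GC content and CpG ratio stayed near theirs. No paired analysis was possible because a single list stands for the control replicates together and the treated libraries were not analysed here, and for the same reason no replicate could be left out. Positions without heights limit what can be said to presence, width and place of a listed peak.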
